A study of Mus musculus with 10 samples.

Results

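Gene expression was compared between 3 Tdg+/- and 3 wt (Tdg+/+) mouse embryonic stem cell (ESC) lines after all genes of chromosomes 11 and 16 had been set aside. ESCs are grown from blastocysts and can form all tissues of the embryo proper. The genes of both chromosomes were removed before library sizes were computed, and reads were summed per gene. Protein-coding genes that reached 20 reads in any of the 6 lines were kept, which left 11331 of the 35427 genes measured in the series. Of the 19439 protein-coding genes off chromosomes 11 and 16, the remaining 8108 stayed under 20 reads in every line and were not tested. The removal took away 1473 protein-coding genes with enough reads, 1072 of them on chromosome 11 and 401 on chromosome 16.

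Every line was a male C57BL/6 line grown without serum in 2i medium (inhibitors of MEK and GSK3) with LIF, and no line was treated. The wt lines carried both wild-type Tdg alleles, the Tdg+/- lines carried 1 wild-type and 1 knockout allele, and 4 Tdg-/- lines of the same derivation are given below for their levels. All lines came from matings of Tdg+/- parents and were started on feeder fibroblasts that were later removed. The knockout allele was present from the zygote on, and each line was a single culture and a single library. The study names fewer matings than lines, so some lines share a mating. Which mating or embryo a line came from is not in the labels. The p values therefore measure the spread between these lines and treat them as independent. The comparison asked how gene expression differs when TDG levels are lowered.

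TDG (thymine DNA glycosylase) cuts formylated and carboxylated cytosine, the products of TET oxidation of methylated cytosine, out of DNA. Base excision repair then puts an unmodified cytosine in their place, which makes TDG the last enzyme particular to active DNA demethylation. It also binds transcription factors and coactivators, including nuclear receptors. Mouse embryos without TDG die before birth, whereas heterozygous mice are viable.

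The 6 lines held 31095285 to 39916039 reads in genes, of which 27106902 to 34276790 remained once chromosomes 11 and 16 were removed. The removed chromosomes held 11.8% to 12.8% of the reads in wt lines and 13.9% to 15.6% in Tdg+/- lines. Chromosome 11 alone held 9.0% to 9.1% in the wt lines and 11.1%, 12.9% and 11.5% in Tdg+/- lines 1 to 3, and chromosome 16 held 3.73% in wt line 1 against 2.63% to 2.82% in the other 5 lines. The 8 ESC markers, among them Pou5f1, Nanog and Dppa5a, summed to 7380 to 8560 TPM (a level scaled for transcript length and depth) in wt and to 7340 to 9040 TPM in Tdg+/- lines. Markers of other cell types were low. The 8 feeder fibroblast markers summed to 12.1 to 17.3 TPM in wt lines and to 13.4, 1.84 and 18 TPM in Tdg+/- lines 1, 2 and 3. The 6 primitive endoderm markers summed to at most 1.32 TPM and the 6 markers of two-cell-like cells to at most 0.102 TPM, with 3 of these 6 at 0 in all 6 lines. The 5 trophectoderm markers summed to at most 0.38 TPM, other than in Tdg+/- line 3 with 2.31 TPM, and Hand1 was at 0 in all 6 lines. Of the 2.31 TPM, 1.82 came from 6 reads of Gata3. The same 6 reads of Gata3 stood for 0.0259 TPM in wt line 1 and 0.028 TPM in Tdg+/- line 1. Over the 10402 tested genes that averaged 1 CPM or more, pairs of lines from different genotypes and pairs of the same genotype overlapped in their distance. The root mean square log2 difference was 0.421 to 0.59 between genotypes, 0.289 to 0.53 among wt lines and 0.382 to 0.478 among Tdg+/- lines. In the wt group, line 1 stood apart from lines 2 and 3 on the second principal component (0.255 against −0.175 and −0.229).

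Tdg and H2-T22 changed between the genotypes, and they were the only genes of the 11331 to pass an adjusted p under 0.05 (0.0177% of the genes). Tdg (ENSMUSG00000034674, chromosome 10) was covered by 2813, 3372 and 2971 reads in wt and by 1348, 1604 and 1906 in Tdg+/- ESCs. As CPM (reads scaled to the TMM-normalised library of the genes off chromosomes 11 and 16), this was 103 to 110 in the wt lines and 48, 50.6 and 54.9 in Tdg+/- lines 1 to 3. The Tdg-/- lines held 9.15, 13, 12.4 and 10.4 CPM. The levels thus lay in the order of the wild-type alleles in every line, which is what the labels call for. Between Tdg+/- and wt ESCs, Tdg fell from 107 ± 3.97 to 51.1 ± 3.48 CPM (SD, n = 3 lines each). Its log2 fold change was −1.06 with a standard error (SE) of 0.108 (adjusted p = 0.0158, edgeR quasi-likelihood test with Benjamini-Hochberg adjustment).

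H2-T22 (ENSMUSG00000056116, chromosome 17) encodes a nonclassical MHC class I molecule that γδ T cells can recognise. It was at 7.34, 7.72 and 7.62 CPM in wt lines and at 20.5, 20.8 and 19.5 CPM in Tdg+/- lines. The spread within each genotype was small beside the distance between them. H2-T22 rose from 7.56 ± 0.199 to 20.3 ± 0.677 CPM (SD, n = 3 lines each), a log2 fold change of 1.42 with a SE of 0.141 (adjusted p = 0.0158, edgeR). The Tdg-/- lines held 8.23, 13, 9.84 and 15.7 CPM, between the groups of wt and Tdg+/- lines. Their log2 fold change against the same wt lines was 0.64 (adjusted p = 0.275, edgeR). H2-T22 has close paralogs with which reads may be shared. H2-T10, one of them, was not annotated as protein-coding, reached at most 88 reads per line and is not among the tested genes. Without wt line 2 or without wt line 3, neither Tdg nor H2-T22 passed (adjusted p = 0.0971 and 0.121, edgeR), although their fold changes moved by less than 0.03 on the log2 scale, and without Tdg+/- line 2 the adjusted p of Tdg was 0.0633.

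**Figure D1:**
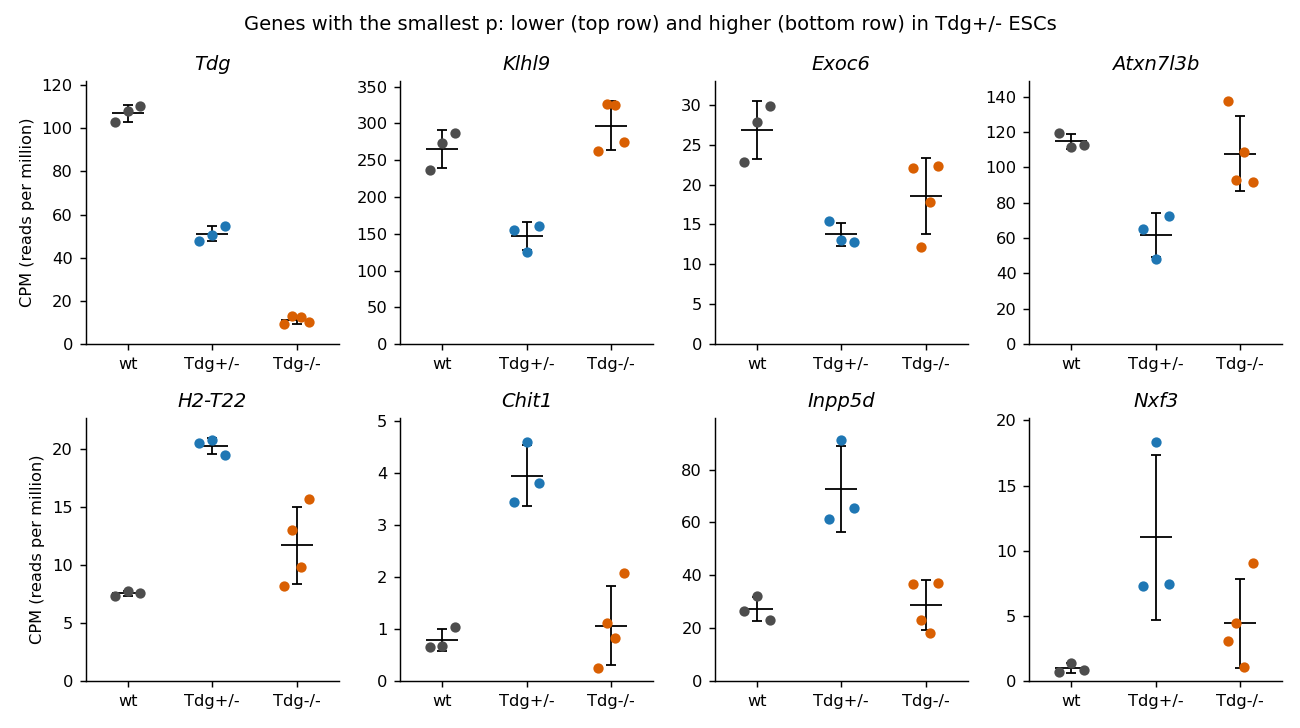
Level in CPM (y axes, linear, starting at 0) of the 4 named genes with the smallest p in each direction, in wt, Tdg+/- and Tdg-/- lines. Points are lines and bars are the mean and SD. For Tdg the lines lie in 3 separate tiers, whereas for Klhl9, Chit1 and Inpp5d the Tdg-/- lines spread around the wt lines.

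Genes are called nominally higher or lower where their unadjusted p was under 0.05. In Tdg+/- ESCs 814 genes were nominally higher (7.18%) and 786 nominally lower (6.94%). Without wt line 1, 1258 of 11250 tested genes were nominally higher and 1158 lower. The Tdg+/- and wt lines did not overlap for 1086 higher genes (9.58%) and 1001 lower genes (8.83%). DESeq2, used as an alternative to edgeR, called 142 genes higher (1.25%) and 110 lower (0.971%) and left 5 without an adjusted p. The median log2 fold change of all genes was −0.01. Next after the called genes, edgeR's adjusted p was 0.0642 for Chit1 and Inpp5d, and 16 genes in all, 11 higher and 5 lower, lay under an adjusted p of 0.1. The median standard error of a log2 fold change was 0.167.

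**Figure D2:**
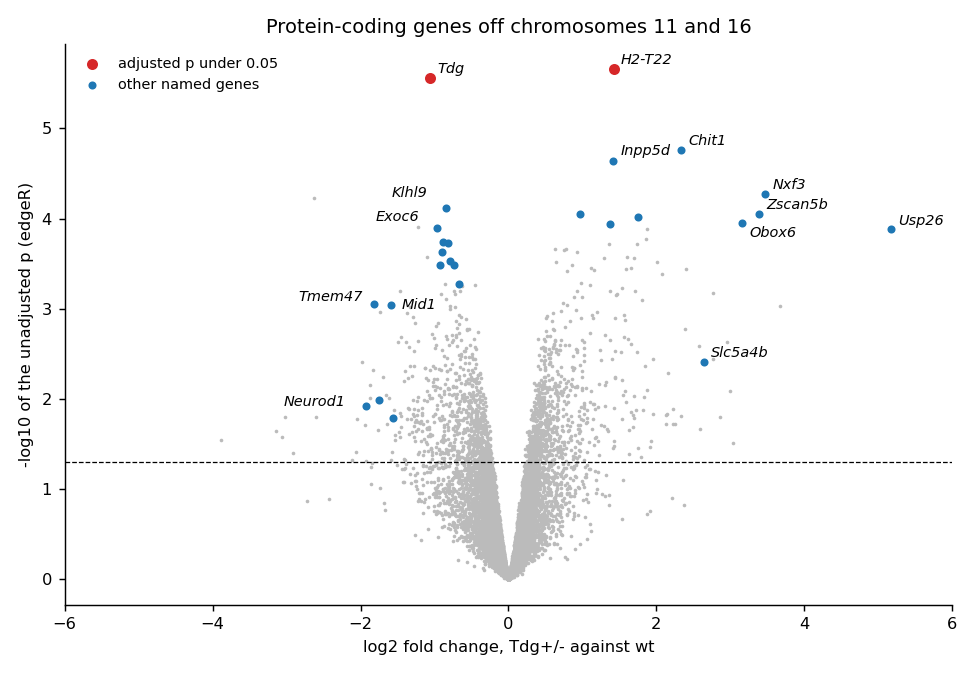
Log2 fold change between Tdg+/- and wt ESCs (x axis) against −log10 of the unadjusted p of edgeR (y axis) for the tested genes, with the 15 genes beyond a log2 of 6 outside the frame. Tdg and H2-T22 (red) stand above all others, and Usp26, Nxf3, Zscan5b and Obox6 have the largest increases among the other named genes (blue).

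Setting aside chromosomes 11 and 16 moved the balance between the directions rather than the called genes. When all chromosomes were kept, the same 11331 genes had 695 nominally higher and 921 nominally lower, against 814 and 786 after the removal. Each gene's log2 fold change was larger by a median of 0.026 (0.011 to 0.035) after the removal, and the 457 genes that changed sign all had a log2 fold change of at most 0.027 in size. Among the removed genes, 612 of 1473 were nominally higher and 81 lower with all chromosomes kept, and 603 of the higher genes lay on chromosome 11. Of all genes that differed nominally, 56.6% were higher with all chromosomes kept and 50.9% without chromosomes 11 and 16. The fit on all chromosomes called 3 genes, Tdg, H2-T22 and Rnf213 on chromosome 11, which is named here after its value was seen.

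The higher genes with the next smallest p were at most at 4.05 CPM in wt lines, except for Inpp5d and Pigyl, and none of them passed the threshold. Chit1, which encodes the chitin-cleaving chitotriosidase of macrophages, was at 0.657, 0.673 and 1.04 CPM in wt lines and at 3.45, 4.61 and 3.80 CPM in Tdg+/- lines. Inpp5d, the lipid phosphatase SHIP1 of blood cells, was at 26.4, 32.0 and 23.2 CPM in wt lines and at 61.4, 91.2 and 65.5 CPM in Tdg+/- lines. Their log2 fold changes were 2.33 and 1.42, with SEs of 0.293 and 0.184. Every Tdg+/- line lay above every wt line for both genes, but genes named by their p had to have groups that did not overlap. The Tdg-/- lines held 0.249 to 2.08 CPM of Chit1 and 18.2 to 36.9 CPM of Inpp5d, below all Tdg+/- lines.

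Usp26, an X-linked deubiquitinase gene of the testis, was at 0.11, 0.545 and 0.446 CPM in wt lines, from 3, 17 and 12 reads, and at 7.55, 26.8 and 6.48 CPM in Tdg+/- lines. Nxf3, an X-linked member of the nuclear RNA export factor family, was at 0.657, 1.41 and 0.855 CPM in wt lines and at 7.26, 18.4 and 7.43 CPM in Tdg+/- lines. Obox6, an oocyte-specific homeobox gene, was at 0.73, 1.70 and 1.30 CPM in wt lines and at 10.2, 18.1 and 5.64 CPM in Tdg+/- lines. In all 3 genes, and in the zinc finger gene Zscan5b with 1.31 to 1.35 CPM in wt lines and 8.65, 24.8 and 8.43 CPM in Tdg+/- lines, Tdg+/- line 2 was the highest. Their log2 fold changes were 5.17, 3.47, 3.16 and 3.38 (adjusted p = 0.0925 for each, edgeR). Without Tdg+/- line 2 they were 4.21, 2.89, 2.63 and 2.68, with adjusted p of 0.0114, 0.0167, 0.101 and 0.0114 (edgeR), and over all alternatives tried their adjusted p rose to at most 0.261 and no direction turned. Tdg-/- line 4 was the highest Tdg-/- line for each of these genes, with 7.51 CPM for Usp26, 9.07 CPM for Nxf3, 5.72 CPM for Obox6 and 9.22 CPM for Zscan5b. Chromosome 11 held the largest share of reads in the same lines of either genotype (12.9% in Tdg+/- line 2 and 10.7% in Tdg-/- line 4), and its part in these levels was not tested.

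Pigyl, a gene related to the Pigy subunit of GPI anchor synthesis, was at 19.9 to 22.7 CPM in wt and 36.4 to 48.4 CPM in Tdg+/- lines. Tmem63a, a mechanosensitive ion channel gene, was at 3.68 to 4.05 and 7.87 to 12.5 CPM, and the adaptor gene Hsh2d of blood cells at 1.39 to 2.97 and 6.94 to 9.49 CPM. Their log2 fold changes were 0.97, 1.38 and 1.75, and the groups did not overlap in CPM for any of them, as the naming rule required. With an offset for transcript length the log2 fold change of Tmem63a was 0.39 (adjusted p = 0.764, edgeR, the highest of its alternatives), and its TPM overlapped between the groups, with 3.90 to 6.17 in wt and 2.65 to 10.8 in Tdg+/- lines. The last of the higher genes that were named for their size, the sodium and glucose cotransporter gene Slc5a4b, had a log2 fold change of 2.64 from 3 to 15 reads in wt and 26 to 105 reads in Tdg+/- lines.

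The genes with the smallest p in the other direction had smaller fold changes and more reads. Klhl9, a substrate adaptor of cullin 3 ubiquitin ligases, was at 236, 273 and 286 CPM in wt lines and at 156, 125 and 160 CPM in Tdg+/- lines, a log2 fold change of −0.85 (SE 0.129, adjusted p = 0.0925, edgeR). Exoc6, a subunit of the exocyst that tethers vesicles to the plasma membrane, was at 22.8, 27.8 and 29.9 CPM in wt lines and at 15.4, 13.1 and 12.8 CPM in Tdg+/- lines (log2 fold change −0.97). For both genes the groups were separate, as the naming rule required, and the Tdg-/- lines lay on the wt side for Klhl9 (263 to 326 CPM). The other named genes of this kind were Atxn7l3b (−0.89 on the log2 scale), the ARF-like GTPase gene Arl4a (−0.81), the calcium-binding S100a11 (−0.90), the actin regulator Marcks (−0.80), the palmitoyltransferase gene Zdhhc15 (−0.74), the annexin gene Anxa1 (−0.93) and Ndufaf4 (−0.67), an assembly factor of respiratory complex I. Their adjusted p lay between 0.102 and 0.127 (edgeR). The wt and Tdg+/- lines did not overlap for any of them, as the naming rule required. DESeq2, run on the same counts, called each of them.

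The lower genes named for the size of their change were the neuronal transcription factor gene Neurod1 (log2 fold change −1.92), Tmem47 (−1.82), the fibrinogen chain gene Fgg (−1.75), Mid1 (−1.59) and S100a16 (−1.56). Without wt line 1 the values of Neurod1, Fgg and S100a16 were −1.16, −1.08 and −0.91. Tmem47, an X-linked gene of cell junctions, was at 36.8, 14.2 and 21.8 CPM in wt lines and at 9.50, 3.85 and 7.34 CPM in Tdg+/- lines. Mid1, a microtubule-bound ubiquitin ligase gene that spans the end of the pseudoautosomal region in C57BL/6 mice, was at 49.9, 31.5 and 52.6 CPM in wt lines and at 17.1, 7.0 and 20.3 CPM in Tdg+/- lines. Tdg+/- line 2 was the lowest line for both genes. The Y-linked genes Ddx3y and Uty, singled out after their values were seen, were also lowest in Tdg+/- line 2. Ddx3y was at 123 to 177 CPM in wt lines and at 103, 37.2 and 138 CPM in Tdg+/- lines, and Uty at 70.1 to 102 CPM and at 55.6, 21.2 and 73.3 CPM. The part of sex chromosome content in the level of Mid1 was not tested.

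Of all gene lists, that of ATF4 targets had the largest share of nominally lower members. The lists and their members were chosen with earlier results of these data known, so this rank is a description only. ATF4 is the transcription factor of the integrated stress response. When amino acids are scarce or a stress kinase is active, it is translated and raises genes of amino acid synthesis and import and of tRNA charging. Of the 35 tested members, 19 (54.3%) were nominally lower and 1 (2.86%) higher in Tdg+/- ESCs, where 6.94% of all tested genes were lower. The median log2 fold change of the members was −0.33, against −0.01 over all tested genes. None passed the adjusted threshold of edgeR, and DESeq2 called 4 of the 35 lower (Slc7a11, Psat1, Sars and Cth), where it called 0.971% of all tested genes lower. In 12 of the 35 the Tdg+/- lines all lay below the wt lines, as they did for 8.83% of all tested genes.

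**Figure D3:**
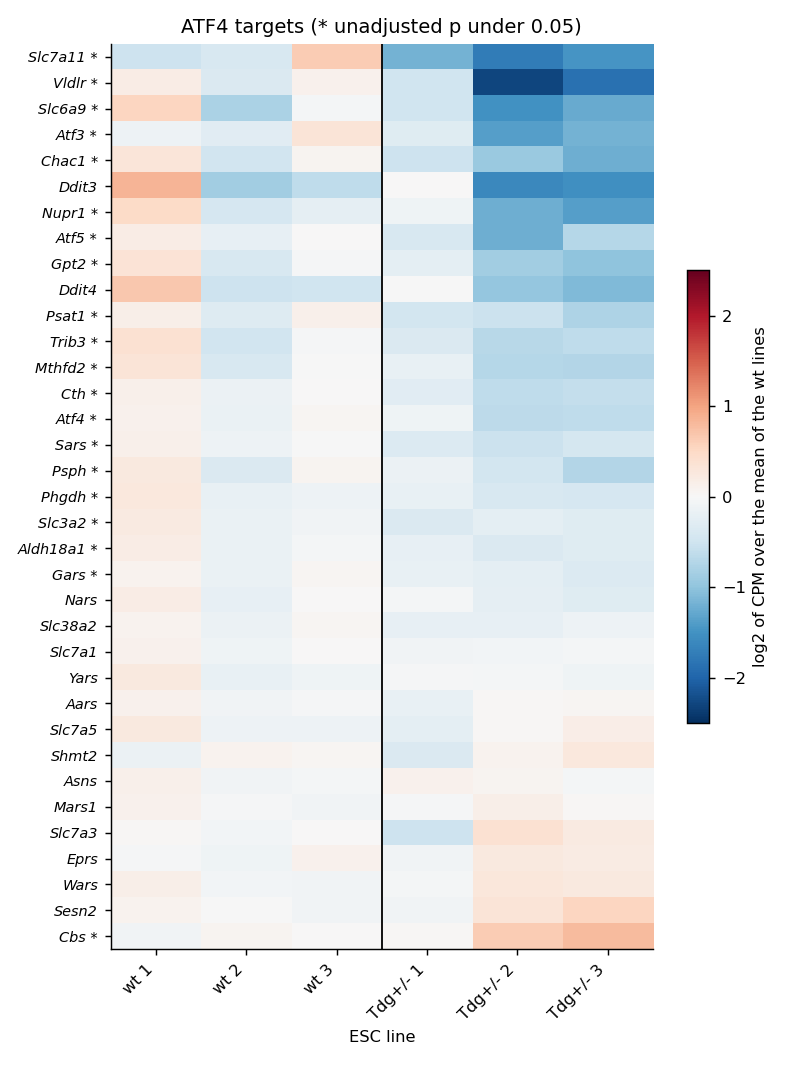
Log2 of the CPM in each line over the mean of the wt lines (colour, red higher and blue lower) for the 35 tested ATF4 targets, ordered by log2 fold change. Tdg+/- lines 2 and 3 are blue from Slc7a11 at the top down to Gars, Tdg+/- line 1 is paler, and wt line 1 has the highest median of the wt lines (0.16).

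Transporters and enzymes of serine and cysteine supply were among the lower ATF4 targets. Slc7a11, the cystine importer, was at 5.0, 5.38 and 11 CPM in wt lines and at 3.13, 2.11 and 2.56 CPM in Tdg+/- lines (log2 fold change −1.45, SE 0.345). Psat1, the transaminase of the serine pathway, was at 984, 709 and 974 CPM in wt lines and at 648, 611 and 524 CPM in Tdg+/- lines (−0.58, SE 0.145). Cth, which makes cysteine from cystathionine, was at 304, 254 and 280 CPM in wt lines and at 230, 181 and 184 CPM in Tdg+/- lines (−0.50, SE 0.127). For these genes the Tdg+/- lines lay below all wt lines, and Tdg+/- line 1 was the closest to them. Phgdh and Psph, the enzymes before and after Psat1, had log2 fold changes of −0.33 and −0.42. In the same pathway Cbs, the enzyme before Cth, was the member that was nominally higher (0.53), with 19 to 21 CPM in wt lines and 20.5, 31.1 and 34.9 CPM in Tdg+/- lines.

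Stress regulators were among the nominally lower members too. Atf4 itself was at 517, 431 and 497 CPM in wt lines and at 448, 306 and 311 CPM in Tdg+/- lines (log2 fold change −0.44), so that Tdg+/- line 1 lay within the wt range. Its partners and targets Atf5, Atf3, Chac1, Trib3 and Nupr1 had log2 fold changes of −0.74, −0.89, −0.86, −0.56 and −0.79. Ddit3 (CHOP) and Ddit4 had values of −0.85 and −0.61 at an unadjusted p of 0.143 and 0.127 (edgeR), with wt line 1 far above the other wt lines (22.8 against 6.92 and 8.10 CPM for Ddit3).

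Of the 8 tested tRNA synthetase genes, the serine and glycine enzymes Sars (−0.44) and Gars (−0.26) were nominally lower. The values of Nars, Yars, Aars, Mars1, Eprs and Wars ran from −0.19 to 0.16. Asns, which makes asparagine and is a classic ATF4 target, was at 1646 to 1909 CPM in wt and 1698 to 1890 CPM in Tdg+/- lines (log2 fold change 0.05). Among the importers of neutral and cationic amino acids, Slc3a2 (−0.30) was nominally lower while Slc7a5, Slc7a1 and Slc7a3 had values between −0.07 and 0.08.

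The count of lower ATF4 targets changed when single lines were left out, as did the count over all tested genes. Without wt line 1 it was 8 of 35 ATF4 targets with a median of −0.17, where 1158 of 11250 tested genes were lower. Without Tdg+/- line 2 or line 3 it was 7 of 35 in either case, with medians of −0.33 and −0.29. In those fits 348 of 11275 and 506 of 11287 tested genes were lower, against 786 of 11331 in the main fit. The medians of the list per line were 0.16, −0.16 and 0.01 in wt lines and −0.19, −0.39 and −0.40 in Tdg+/- lines, each as a log2 difference from the mean of the wt lines. With 3 surrogate variables, the setting the study names for these data, 24 members were lower and 1 higher. That fit leaves 1 residual degree of freedom, and in it 2141 of all 11331 tested genes were lower and 1917 higher.

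ATF4 acts with C/EBP proteins on composite elements that carry TGATGNAA. Promoter sequences (RefSeq, build GRCm38.p6, 250 bases before to 50 after the start) could be matched to 30 of the 35 ATF4 targets. TGATGNAA, searched on both strands, was present in 9 of the 30 (30%) and in 199 of the 8987 promoters matched to tested genes (2.21%). It was present in 6 of the 18 matched targets that were lower (33.3%). The stretches before the start that hold it are printed 5′ to 3′ on the strand of the gene, with the element in capitals and up to 30 bases on either side. They are shown because the same element stands in targets that were lower (Slc7a11, Chac1, Atf3, Nupr1 and Gars) and in targets that were not (Asns and Aars).
Slc7a11: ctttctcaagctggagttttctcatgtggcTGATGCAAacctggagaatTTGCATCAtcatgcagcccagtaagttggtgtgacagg
Chac1: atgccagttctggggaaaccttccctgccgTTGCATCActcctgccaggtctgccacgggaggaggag
Atf3: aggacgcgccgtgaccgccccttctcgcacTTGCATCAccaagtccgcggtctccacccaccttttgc
Nupr1: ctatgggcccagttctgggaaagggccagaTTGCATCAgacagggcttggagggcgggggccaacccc
Gars: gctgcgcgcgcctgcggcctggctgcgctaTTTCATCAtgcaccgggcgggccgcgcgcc
Asns: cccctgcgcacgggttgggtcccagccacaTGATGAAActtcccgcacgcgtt
Aars: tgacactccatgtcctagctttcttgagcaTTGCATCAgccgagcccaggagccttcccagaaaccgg

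Slc7a11 holds the element on both strands, 66 and 47 bases before the start, and lies at chr3:50443623-50443709 on the minus strand. The other stretches are chr2:119351019-119351086 (plus strand, Chac1), chr1:191183406-191183473 (minus strand, Atf3), chr7:126625543-126625610 (minus strand, Nupr1), chr6:55037941-55038000 (plus strand, Gars), chr6:7693210-7693262 (minus strand, Asns) and chr8:111033700-111033767 (plus strand, Aars). The letters TTGCATCA, the element read on the other strand, are shared by Slc7a11, Chac1, Atf3, Nupr1 and Aars. A match is a description of the letters and not a measured binding site.

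**Figure D4:**
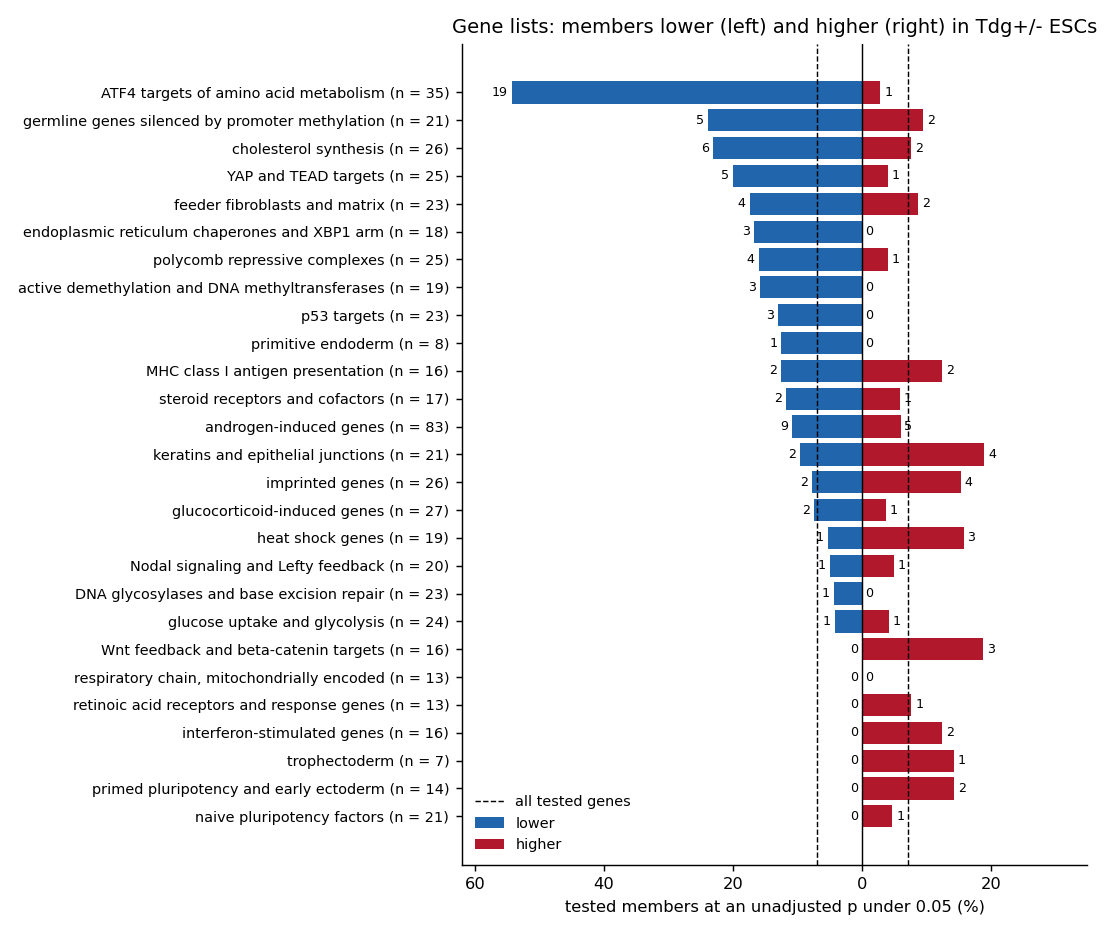
Percentage of each list's tested members (n beside the name) that were lower (left, blue) or higher (right, red) in Tdg+/- ESCs nominally, with the number of genes at the bar's end. Dashed lines give the percentage over all tested genes, 6.94% lower and 7.18% higher. The ATF4 targets reach 54.3% lower, and no other list exceeds 23.8% in either direction.

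Among the genes that write, oxidise or remove methylated cytosine, Tdg stood alone past the threshold. Of the 19 tested members 3 were nominally lower and 0 higher (median log2 fold change −0.10). Beside Tdg these were Idh1, which supplies the cofactor of TET enzymes (287, 292 and 317 CPM in wt and 261, 247 and 246 CPM in Tdg+/- lines), and Gadd45g at under 1 CPM. The TET dioxygenase genes Tet1, Tet2 and Tet3 had log2 fold changes of −0.07, −0.10 and 0.41, the last from a mean of 1.72 CPM in wt and 2.26 CPM in Tdg+/- lines (unadjusted p = 0.196, edgeR). The methyltransferase genes Dnmt1, Dnmt3a and Dnmt3b had values of 0.27, 0.13 and −0.04, and their unadjusted p were 0.0659, 0.436 and 0.872 (edgeR). Of 23 tested genes of DNA glycosylases and base excision repair, Tdg was the lower one and no member was higher (median 0.03). The replicative polymerase genes Pold1 and Pole, which fill the gap in long-patch repair, had log2 fold changes of 0.29 each.

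Genes that DNA methylation keeps silent in somatic cells lay on both sides. Of 21 tested germline genes 5 were nominally lower and 2 higher (median −0.64, against −0.01 over all genes). Ddx4, the germ cell helicase Vasa, was at 29.7, 12.4 and 15.2 CPM in wt lines and at 9.43, 8.67 and 8.12 CPM in Tdg+/- lines (−1.13). Piwil2, a PIWI protein of the piRNA pathway, was at 4.39 to 6.31 and 2.60 to 3.45 CPM (−0.83), whereas the testis tubulin gene Tuba3a was at 4.29 to 9.20 and 12.8 to 37.4 CPM (1.74). The list's median rested on wt line 1. Without that line the median was 0.12, with 2 members lower and 5 higher among 18 tested, and Ddx4 was at −0.65. In that fit 1158 of 11250 tested genes were lower and 1258 higher. Without Tdg+/- line 2 Tuba3a was at 1.07.

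Imprinted genes, which are expressed from 1 parental allele under the control of methylation, held 4 nominally higher and 2 lower members of 26 tested (15.4% higher and 7.69% lower, median 0.06). Slc38a4, a paternally expressed amino acid transporter, was at 41, 19.9 and 23.6 CPM in wt lines and at 105, 136 and 65.7 CPM in Tdg+/- lines. Its log2 fold change was 1.86 (SE 0.31, adjusted p = 0.102, edgeR), and the 4 Tdg-/- lines held 12 to 42.6 CPM. Plagl1, a zinc finger transcription factor, was at 3.87 to 8.44 CPM in wt and 12.4 to 16.1 CPM in Tdg+/- lines (1.02), and Mest at 26.1 to 28.2 and 31.4 to 70.5 CPM (0.81). Nnat was at 0.365, 0.769 and 0.372 CPM in wt lines and at 1.10, 4.01 and 2.88 CPM in Tdg+/- lines (2.39). All 4 are expressed from the paternal allele, as is Igf2, which was one of the lower members (−1.10) at 1.04 to 1.38 and 0.284 to 0.95 CPM. Ppp1r9a was the other (−0.62). Snrpn, Peg3 and Igf2r had log2 fold changes of 0.21, 0.02 and 0.24. Without Tdg+/- line 2 the adjusted p of Slc38a4 was 0.338 (edgeR), the highest of all alternatives, and its log2 fold change 1.60.

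Steroid receptors were weakly expressed. Nr3c1, the glucocorticoid receptor gene, was at 11.4, 11.3 and 13.5 CPM in wt lines and at 9.47, 9.62 and 12.6 CPM in Tdg+/- lines. Its log2 fold change was −0.19 with a SE of 0.174 (adjusted p = 0.642, edgeR), and the groups overlapped. Pgr, the progesterone receptor gene, held 29, 17 and 19 reads in wt lines and 4, 7 and 9 reads in Tdg+/- lines (−1.83), and Nr3c2, the mineralocorticoid receptor gene, 20, 34 and 28 and 15, 17 and 8 reads (−1.17). Neither passed (adjusted p = 0.214 and 0.278, edgeR). Esr1 and Esr2 reached no more than 4 and 6 reads in any line, too few for a test. With the transcript length offset Nr3c2 was at −0.26. Of the 17 tested receptors and cofactors 2 were nominally lower and 1, the coactivator gene Ncoa2 (0.34), higher, but with the length offset Ncoa2 was at 0.01.

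Glucocorticoid-induced genes held 1 nominally higher and 2 lower members of 27 tested, near the shares over all genes, with a median log2 fold change of 0.01. Tsc22d3 (GILZ) was at 12.2, 7.17 and 9.48 CPM in wt lines and at 7.65, 2.87 and 4.15 CPM in Tdg+/- lines (−0.99), and Cebpb at 3.33 to 4.71 and 1.83 to 3.20 CPM (−0.79), while Arrdc2 was higher (0.39). Fkbp5, a chaperone of steroid receptors that both hormones induce, had a log2 fold change of 0.15. Of 83 tested androgen-induced genes 9 (10.8%) were nominally lower and 5 (6.02%) higher, with a median of −0.05. The lower ones included Sms, the spermine synthase gene (log2 fold change −0.64), and Ell2, an elongation factor gene (−0.67), whose groups did not overlap. Krt8, a keratin of simple epithelia, was the higher one with the smallest p, with 31, 31.8 and 28 CPM in wt lines and 59.0, 45.5 and 51.5 CPM in Tdg+/- lines (0.78). The glucocorticoid, mineralocorticoid and progesterone receptors bind pairs of the site AGAACA that face each other 3 bases apart. This pair was found in 0 of the 8987 promoters, and the single site AGAACA, searched on both strands and contained in the pair, in 12.2% of them and in 1 of the 25 matched glucocorticoid-induced genes (4.0%). Of the androgen-induced genes, 60 of 83 could be matched and 9 of these held AGAACA (15%).

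H2-T22 belongs to the list of antigen presentation by class I molecules. Of 16 tested members, H2-T22 included, 2 were nominally higher and 2 lower (median 0.23). Without wt line 1, 9 were higher and 1 lower, with a median of 0.54. In that fit 1258 of 11250 tested genes were higher and 1158 lower, against 814 and 786 of 11331 in the main fit. Tapbp (tapasin), which loads peptides onto class I molecules and lies on chromosome 17 like H2-T22, was at 31.9, 33.7 and 28.4 CPM in wt lines and at 48.9, 50.5 and 59.5 CPM in Tdg+/- lines (0.76, adjusted p = 0.102, edgeR). Its groups were separate, and the 4 Tdg-/- lines held 24.3 to 35 CPM. The peptide transporter gene Tap1 (−0.88) and the chaperone gene Calr (−0.37) were nominally lower. The classical class I genes H2-K1 and H2-D1 had values of 0.52 and 0.14, and B2m, their light chain, of −0.07. Of 16 tested interferon-stimulated genes 2 were nominally higher and 0 lower (median 0.09), Ifi27 at 0.446 to 0.62 CPM in wt and 1.67 to 2.84 CPM in Tdg+/- lines (2.01) and Oas1a (0.78). A further 12 members of this list lay on the removed chromosomes.

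In signalling pathways of early development, single genes stood out more than lists. Lefty2, the secreted Nodal inhibitor, was at 121, 206 and 228 CPM in wt lines and at 351, 692 and 757 CPM in Tdg+/- lines (log2 fold change 1.70, SE 0.303, adjusted p = 0.102, edgeR). Every Tdg+/- line lay above every wt line, and the Tdg-/- lines at 186 to 349 CPM lay lower than all 3 Tdg+/- lines. Id2, a target of BMP signalling, was nominally lower (−0.87), and Lefty2 and Id2 were the only members of the 20 tested Nodal genes to differ nominally (median 0.03). Of 16 tested Wnt targets 3 were nominally higher and 0 lower (median 0.14), namely Sp5 (0.72), T (1.18) and Dkk1 (1.93), and for each of them Tdg+/- line 1 lay within the wt range. These 3 of 16 made up 18.8%, against 7.18% of all tested genes. Their number became 0 without wt line 1 (1258 of 11250 tested genes higher) or Tdg+/- line 2 (412 of 11275). It was 1 without wt line 3 (448 of 11314) or Tdg+/- line 3 (528 of 11287). Without Tdg+/- line 1 it was 6 (1284 of 11305). YAP and TEAD targets held 5 nominally lower and 1 higher of 25 (median −0.08). Ccn1, Ccn2 and F3 had log2 fold changes of −0.85, −0.97 and −1.38, and Ccn2 was at −0.54 without wt line 2. Ccn1 and Ccn2 are also abundant in fibroblasts, whose markers were lowest in Tdg+/- line 2, and the part of feeder RNA in these values was not tested. Of 13 tested retinoic acid genes only Rxra was nominally higher (0.61) and none lower (median −0.06).

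Few pluripotency genes differed nominally. Of 21 tested naive factors 1 was higher, Tfcp2l1 (673, 949 and 806 CPM in wt and 947, 1011 and 1172 CPM in Tdg+/- lines), and 0 were lower, with a median log2 fold change of 0.05. Pou5f1, Nanog, Sox2 and Esrrb had values of −0.03, −0.16, −0.15 and 0.18. Klf5 (−0.24) kept that sign in the alternatives other than the transcript length offset, where it was 0.05. Of 14 tested primed and early ectoderm genes T and Nes (0.44) were nominally higher and none lower (median −0.07), and Otx2 ranged from 8.65 to 52.2 CPM among the wt lines alone. Primitive endoderm genes held 1 nominally lower member, Sox7 (−1.27), of 8, trophectoderm genes 1 higher, Krt8, of 7, and no two-cell-like gene had enough reads to be tested. Feeder and matrix genes held 4 nominally lower and 2 higher members of 23 (median −0.44). Without Tdg+/- line 2 the median was −0.06 with 2 lower and 1 higher. In that fit 348 of 11275 tested genes were lower and 412 higher. In bulk RNA, fewer cells of a type and less RNA per cell cannot be told apart.

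Among metabolic lists, cholesterol synthesis held 6 nominally lower (23.1%) and 2 higher members of 26 (median −0.10). The lower ones included Hmgcs1, which makes HMG-CoA, at 591, 672 and 629 CPM in wt lines and 390, 368 and 540 CPM in Tdg+/- lines (−0.54), and the later enzymes Msmo1 (−0.45) and Hsd17b7 (−0.56). Ebp, a sterol isomerase gene on the X chromosome, was one of the higher members (0.46), with 33.6 to 36.6 CPM in wt lines and 33.9, 62.5 and 50.2 CPM in Tdg+/- lines. For the 6 lower genes the groups did not overlap, and for the 2 higher genes the groups overlapped through Tdg+/- line 1. Without wt line 1 the median was 0.01, with 7 lower and 4 higher. In that fit 1158 of 11250 tested genes were lower and 1258 higher. Of 24 tested genes of glucose uptake and glycolysis 1 was nominally lower, Bnip3 (−0.60), and 1 higher, Pfkm (0.37), with a median of 0.03. The 13 mitochondrially encoded genes held no nominally higher or lower member (median −0.08). Without wt line 1, 3 were lower (median −0.23), where 1158 of 11250 tested genes were lower. Without Tdg+/- line 1, 4 were lower (median −0.25), where 1149 of 11305 tested genes were lower. With 3 surrogate variables 5 were higher and 1 lower. That fit leaves 1 residual degree of freedom, and in it 1917 of 11331 tested genes were higher and 2141 lower.

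The lists of protein quality control and growth control held few members that differed nominally, with counts that moved with single lines. Endoplasmic reticulum chaperones held 3 lower and 0 higher members of 18 (Calr, Herpud1 and Dnajb9, median −0.01), and 2 lower and 4 higher without wt line 1 (median 0.10). Heat shock genes held 3 higher, Hsph1 (0.38), Hspa1b (0.74) and Hspa1a (0.77), and 1 lower, Chordc1 (−0.40), of 19 (median −0.08). Of 23 tested p53 targets 3 were lower and 0 higher (median −0.05): Plk2 at 45.7 to 56.1 CPM in wt and 31.9 to 35.6 CPM in Tdg+/- lines (−0.56), Perp (−0.68) and Mdm2 (−0.31). Polycomb genes held 4 lower members of 25, among them the core subunit genes Eed (−0.38) and Rbbp4 (−0.25), and 1 higher, L3mbtl2 (0.70), which was at 110 to 130 CPM in wt and 139 to 220 CPM in Tdg+/- lines (median −0.04). Keratins and junction genes held 4 higher and 2 lower of 21 (median 0.01), and without wt line 1 they held 6 higher and 0 lower of 20 (median 0.25). In the fit without wt line 1, 1258 of 11250 tested genes were higher and 1158 lower. The junction gene Ocln (0.91) and its regulator Grhl2 (1.01) were among the higher ones with Krt8, and Cldn4 (−0.59) and Dsc2 (−0.92) were lower.

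With chromosomes 11 and 16 set aside, the remaining autosomes lay close together and the X chromosome lay lower in Tdg+/- lines. The median log2 fold change of the autosomes ran from −0.07 on chromosome 18 to 0.04 on chromosome 19. Of 442 tested X-linked genes 56 (12.7%) were nominally lower and 17 (3.85%) higher, with a median of −0.10. Over all tested genes these shares were 6.94% and 7.18%. Among the autosomes, chromosome 14 had the largest lower share (11.2%, with 7.74% higher), followed by chromosomes 12 (9.52% lower) and 18 (9.32% lower). Over the 315 X-linked genes that averaged 5 CPM or more, the line medians were −0.01, −0.02 and 0.05 in wt lines and −0.07, −0.07 and −0.15 in Tdg+/- lines. All 3 Tdg+/- lines lay below all wt lines, which gives an exact two-sided permutation p of 0.1, the smallest that 3 lines against 3 allow. The X chromosome was singled out after the values of all remaining chromosomes were seen. Tdg+/- line 3 was lower than the other two. Without the X chromosome as well, the same numbers of genes passed (1 higher and 1 lower of 10889), with 784 nominally higher and 757 lower. On chromosome 10, which carries Tdg, 42 of 608 genes were nominally higher and 49 lower (median −0.02), near the shares over all genes.

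**Figure D5:**
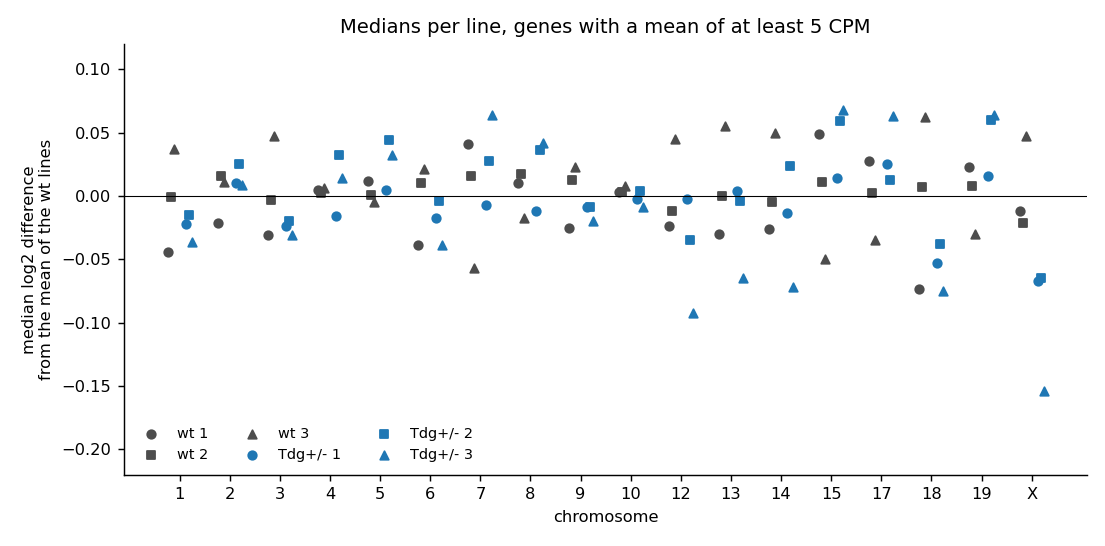
Median log2 difference from the mean of the wt lines for each chromosome (x axis), over genes averaging 5 CPM or more. Each symbol is a line (wt grey, Tdg+/- blue). On the X chromosome all Tdg+/- lines lie below the wt lines, with Tdg+/- line 3 at −0.15, while on the autosomes no line median exceeds 0.10 in size.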

How the data were processed

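RNA was sequenced from 10 ESC lines (stranded total RNA, ribosomal depletion, single-end reads). The authors quantified transcripts with Salmon 0.8.1 on GRCm39. The authors deposited estimated counts (expected counts that need not be whole, not normalized) and TPM per transcript. Here counts were summed per gene and rounded. TPM were used only for cell type markers and for Tmem63a, and the effective transcript lengths only for an alternative. Transcripts were paired with genes by identifier through a GRCm38 annotation (115153 of 116357, 98.97%; 483 symbols updated), so no gene coordinates are given. Unpaired transcripts held 0.472% to 0.499% of reads and were left out. Salmon can split reads between near-identical genes.

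Genes of chromosomes 11 and 16 were removed, library sizes were taken from all remaining genes, and protein-coding genes with at least 20 reads in 1 of 6 lines were tested with edgeR 4.0.16 (TMM, quasi-likelihood test, R 4.3.3, threshold 0.05 adjusted). The common biological coefficient of variation was 0.185 with 4 residual degrees of freedom. The study names 3 surrogate variables, which would leave 1 residual degree of freedom in 6 lines, so they were an alternative (sva 3.50.0), as was DESeq2 1.42.0. In all 21 alternative settings were fitted, 1 of them chosen after seeing the data. Within genotypes no pair of lines agreed within sampling noise (chi-square of 17.45 to 67.38 per gene), so none was counted as a repeat. Line distances used log2 CPM with a prior count of 2. The tests were also run on simulated data in which genes varied independently, so this check does not cover genes that move together across lines.

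Named genes were Tdg, all genes past the threshold, the 10 with the smallest p in each direction (mean of at least 1 CPM, groups apart, a full symbol and no clone-type name), the 5 largest changes per direction among such genes, steroid receptors, and up to 3 members with the smallest p of each of 28 gene lists drawn up from general knowledge. Some genes of these lists are not reported here. The members, lists and tests were chosen with earlier results of these data known. Lists are described by counts and medians. The Tdg-/- lines share the wt controls, so their values are given side by side only. Promoters were matched by gene ID, for 8987 of 11331 genes (79.3%). Because under 80% matched, the CpG number of promoters was not compared, and the motif shares describe the matched promoters only.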

Additional observations from a re-analysis of the deposited data

Results flagged for a closer look

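Obox6 was singled out because 1 of the 4 Tdg-/- lines lay far from the others. Tdg-/- line 4 held 5.72 CPM and lines 1 to 3 held 0.926, 1.22 and 1.02 CPM, a gap wide enough for Dixon's test at 95%. Chance alone gives such a gap in about 1 of 20 groups, so that some are bound to appear where many genes are looked at. The cause was not tested.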

How the results depend on the processing

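Of 11331 tested genes 1 passed higher and 1 lower. DESeq2 passed 142 and 110, 3 surrogate variables 1132 and 1288 (with 1 residual degree of freedom), 1 surrogate variable 4 higher, all 10 lines in the fit 7 and 5, no filter beyond 1 read 4 higher, all chromosomes 2 higher, and all gene types and a transcript length offset 2 and 2 each. Leaving out 1 line gave 0 to 30 higher and 0 to 6 lower: without wt line 2 or 3 edgeR passed none (549 and 617, or 448 and 512, at an unadjusted p under 0.05), and without Tdg+/- line 1 it passed 30 and 6. At an unadjusted p under 0.05 the counts of 814 higher and 786 lower became 1307 higher with all chromosomes, 1917 and 2141 with 3 surrogate variables, and 412 to 1284 and 348 to 1158 with 1 line left out. The causes were not tested.

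Whether the replicate numbers pair the lines is not in the labels. The deviations of same-numbered Tdg+/- and wt lines from their group means correlated at 0.211, −0.0216 and 0.0568 over 10402 genes. Tdg+/- line 1 correlated best with wt line 1, line 2 with wt line 3 (0.0326) and line 3 with wt line 2 (0.315). Deviations from a group mean are tied to each other, so these values cannot settle a pairing. A fit with the replicate block passed 20 genes higher and 6 lower. The edgeR legacy dispersion, added after the data were seen, passed 1 gene in each direction. Tdg kept its direction in all settings, with log2 fold changes of −1.119 to −1.011 (adjusted p 0.0396 to 0.121) with 1 line left out, and passed in 18 of 21. H2-T22 ran from 1.403 to 1.448 (0.0396 to 0.121) and passed in 19 of 21. Of the other named genes reported, none of which passed, signs turned for Klf5 (0.049) and Tgm2 (−0.301), both with the length offset. Low counts limit Pgr, Usp26, Chit1, Slc5a4b, Sox7, Gadd45g, Nnat, Ifi27 and Dkk1, which held under 30 reads in every wt line.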

Other observations

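A few genes were present in some lines and at 0 in others of the same genotype, which no comparison of groups describes. They were singled out after their values were seen, and no fold change is given against a group at 0. Gm14440, a zinc finger gene on chromosome 2, was at 27.3 CPM in wt line 3 and at 0 in the other 9 lines. Gm10184 on chromosome 17 was at 308 CPM in Tdg+/- line 3 and at 0 to 2.10 CPM in the other lines. Fam177a2 on chromosome 12 was at 0 in all wt lines, at 6.23, 0 and 6.51 CPM in Tdg+/- lines and at 2.14, 0, 0 and 4.70 CPM in Tdg-/- lines, and BC005561 on chromosome 5 was present in Tdg+/- lines 2 and 3 (3.53 and 4.49 CPM) and Tdg-/- line 1 (3.42 CPM) only. Genes of these kinds can have near-identical copies between which Salmon divides reads, and the part of such division in these values was not tested.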
